A study of Homo sapiens with 6 samples.

Results

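The E2F and RB family was described across 6 RNA sequencing libraries of U87-MG, a human glioblastoma line long kept in adherent culture. The members were taken by gene symbol and were the transcription factors E2F1 to E2F8 and the pocket proteins RB1 and RBL1, which made 10 of the 61806 genes in the table. By role they were 3 activators (E2F1, E2F2 and E2F3), 3 repressors (E2F4, E2F5 and E2F6), 2 atypical repressors (E2F7 and E2F8) and 2 pocket proteins. The libraries came from U87-MG cells with the genotype wildtype and a negative control (NC, n = 3) and from U87-MG cells with the genotype GRIK1 knockdown (n = 3), in which the glutamate receptor gene GRIK1 was targeted by siRNA. The time after transfection was not given in the sources used here, and both groups were made from the same cell line as total RNA. The comparison asks how the transcriptome of these cells differs with knockdown of GRIK1.

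E2F factors bind DNA as dimers with a DP partner and control genes that a cell needs to leave G1 and copy its DNA. In resting and early G1 cells the pocket proteins RB1, RBL1 (p107) and RBL2 (p130) hold E2F factors and keep those genes down, and phosphorylation by cyclin D and cyclin E kinases frees the activators. E2F1 is also one of the genes that E2F factors control, and in gliomas this pathway is commonly disturbed above RB1 through loss of CDKN2A or gain of CDK4.

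The libraries held between 11099909 and 14006968 counted reads. The knockdown was not visible in GRIK1 itself, which had 18, 9 and 8 counts in NC and 15, 20 and 20 after siRNA by label. At a mean of 0.287 FPKM, GRIK1 lay under the minimum of 0.5 FPKM used for testing, so these few counts are a weak check. The study itself reports an efficient knockdown in U87-MG, from relative levels of GRIK1 with and without siRNA. Measured as log2(FPKM + 1), the group labelled as knockdown was higher by 0.12, and the two-sided exact permutation test gave p = 0.4, where 0.1 is the smallest value that 3 against 3 libraries allow. Directions are therefore given for the libraries by their label (called siRNA libraries from here on), not for a loss of GRIK1. NC library 3 stood apart. Its log2 CPM correlated across genes at 0.964 and 0.968 with the other NC libraries, which correlated with each other at 0.990, and the siRNA libraries correlated among themselves at 0.989 to 0.992. Results are given with and without it. Of 7 glial and glioma markers only 3 reached a mean of 0.5 FPKM, among them VIM and CD44, while SOX2 and S100B were near 0. GFAP was low in both groups but differed between them, with 13, 11 and 8 counts in NC and 39, 36 and 38 in the siRNA libraries (log2 fold change 1.61, adjusted p 0.0109 in edgeR without a filter on low values, and 1.39 without NC library 3). The summed FPKM of these markers was 876 to 1149 in NC and 1066 to 1096 in the siRNA libraries. Most of this sum was VIM, at 824.62 to 1076.17 FPKM in NC and 1005.17 to 1037.71 in the siRNA libraries. Leukocyte and endothelial markers reached the minimum in 0 of 5 and 0 of 3 cases, with sums of at most 0.76 and 0.08 FPKM, and 2 of 4 epithelial markers reached it, with sums of 1.67 to 2.56 FPKM in NC and 2.05 to 3.03 in the siRNA libraries. Their part in the results was not tested. The labels do not state separate cultures, and do not say whether the numbers 1 to 3 of the siRNA libraries name replicates or sequences. The study's methods describe 3 siRNA sequences, and its text says that siRNA1 was chosen for the experiments that came after the knockdown was tested. The p-values measure the spread between these libraries, which may be technical.

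The DNA just before the start site of E2F1, E2F2, E2F3 and RBL1 is shown because it holds the letters that E2F factors are known to bind, and because these 4 genes are the members in which such letters were found. The stretches were read from RefSeq promoter windows on GRCh38.p14, run 5′ to 3′ along the strand of the gene and end at the base before the start site. Capitals mark matches to TTTGGCGC, TTTCGCGC, TTTCCCGC or TTTGCCGC on either strand, and no matches overlapped each other.

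E2F1, chr20:33686386-33686635, minus strand: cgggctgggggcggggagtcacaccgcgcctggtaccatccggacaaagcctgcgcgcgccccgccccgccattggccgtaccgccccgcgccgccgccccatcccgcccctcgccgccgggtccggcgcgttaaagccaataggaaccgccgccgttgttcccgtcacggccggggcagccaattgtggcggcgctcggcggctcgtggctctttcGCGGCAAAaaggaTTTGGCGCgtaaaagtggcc

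E2F2, chr1:23531234-23531303, minus strand: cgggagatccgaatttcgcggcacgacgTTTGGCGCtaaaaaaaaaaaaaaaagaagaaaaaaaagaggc

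E2F3, chr6:20401809-20401878, plus strand: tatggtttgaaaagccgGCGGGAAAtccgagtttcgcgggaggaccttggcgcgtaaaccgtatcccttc

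RBL1, chr20:37095998-37096067, minus strand: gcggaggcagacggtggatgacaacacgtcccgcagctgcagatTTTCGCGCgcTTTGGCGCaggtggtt

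Counted from the start site as 0, the E2F1 matches lay at -33 to -26 (TTTGCCGC on the opposite strand) and at -20 to -13 (TTTGGCGC). The window of RBL1 also held 2 matches, at -26 to -19 and at -16 to -9. E2F2 held 1 at -42 to -35 and E2F3 held 1 at -53 to -46, the latter as TTTCCCGC on the opposite strand. A second RefSeq window of E2F3, 1735 bases downstream, held 0. The windows of E2F4, E2F6 and E2F7 held 0 matches, E2F5 and E2F8 had no window, and the window listed for RB1 was not at the start of the gene and was not used. Any of the 4 sequences occurred in 3.31% of the 35116 windows of the same length, each of which runs from 250 bases before to 49 bases after a start site. The E2F1 window also held 3 CCAAT sequences, which 34.6% of all windows hold at least once.

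Levels per exonic length were compared on the FPKM scale. E2F4, the main E2F of resting cells, was the most abundant member with a mean of 15.7 FPKM over the 6 libraries (range 13.64 to 19.32), and it lay above every other member in each library. E2F1 followed with 5.48 FPKM and a wide range, 2.42 to 8.69. E2F6, RB1, RBL1 and E2F3 had means of 5.17, 4.65, 4.58 and 3.58 FPKM. The ranges of neighbours overlapped from E2F1 down to E2F3, and E2F1 was above E2F6 in only 3 of 6 libraries and RB1 above RBL1 in 3 of 6. E2F5 was at 2.50 FPKM, below E2F3 in 6 of 6 libraries.

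**Figure D1:**
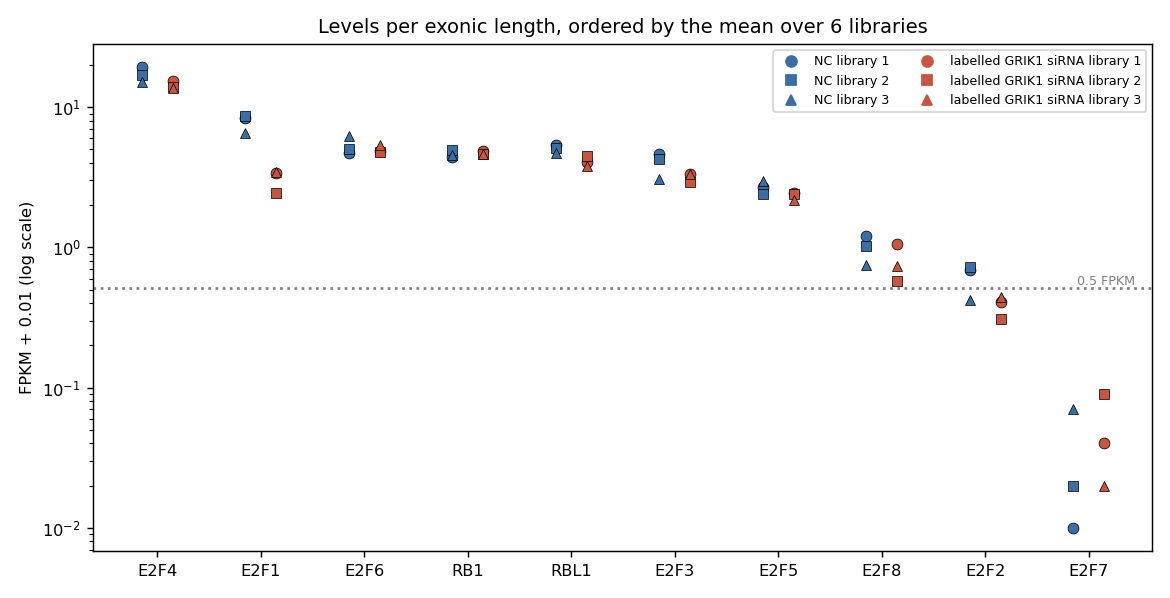
Level of each member in each of the 6 libraries as FPKM + 0.01 on a log axis, ordered by the mean, with NC libraries in blue and siRNA libraries in red and a dotted line at the minimum of 0.5 FPKM used for testing. E2F4 lies highest with 13.64 to 19.32 FPKM, E2F1 is the member whose groups are farthest apart, and E2F7 is at or under 0.08 FPKM in each library.

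The lowest levels were those of E2F8, E2F2 and E2F7, with means of 0.883, 0.49 and 0.0317 FPKM. E2F8 was above E2F2 in 6 of 6 libraries although their ranges overlapped, and E2F2 was above E2F7 without overlap. E2F2 and E2F7 did not reach the mean of 0.5 FPKM and were not among the 15870 genes tested, so 8 of 10 members were tested. The mean was taken over all 6 libraries.

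**Figure D2:**
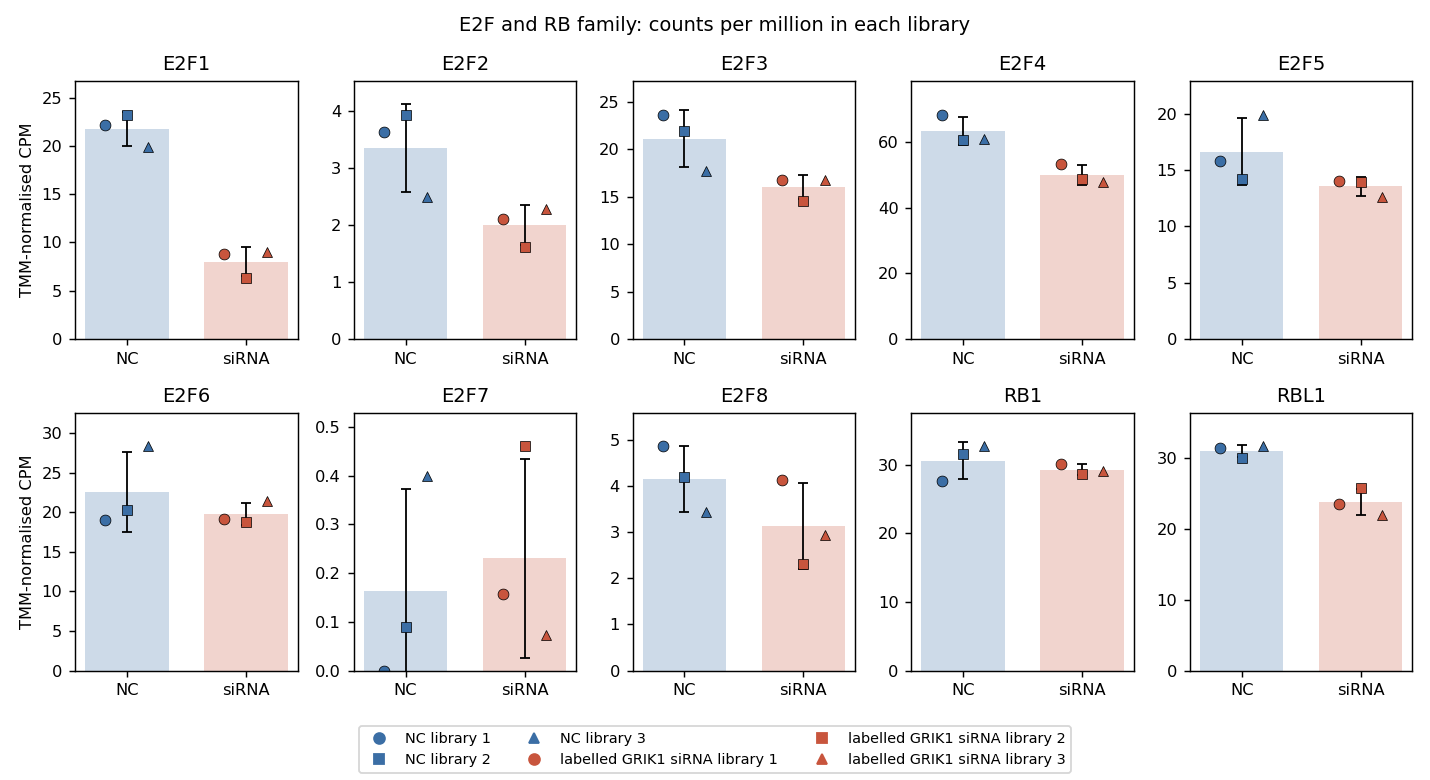
CPM of each member with TMM scaling, in NC (blue) and siRNA libraries (red), where symbols are single libraries, bars are group means and error bars are the SD (n = 3), each panel with its own linear axis from 0. E2F1 lies at 19.8 to 23.2 in NC and at 6.30 to 8.99 in the siRNA libraries, and the groups of E2F6, E2F7, E2F8 and RB1 overlap.

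Of the 8 members tested, E2F1 alone passed an adjusted p of 0.05 in edgeR's quasi-likelihood test with Benjamini-Hochberg adjustment, and it also passed a log2 fold change of 1 in size. Over all tested genes 3.08% passed the adjusted p (1.48% as lower) and 1.41% passed both limits. At an unadjusted p of 0.05, 4 of 8 members passed, beside 25.1% of all tested genes. The fitted change was below 0 in 8 of 8 members, with a median log2 fold change of -0.36 beside -0.02 over all tested genes. In bulk RNA, fewer cells in one phase of the cell cycle and less RNA per cell cannot be told apart.

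In CPM (counts scaled to the library's total and its TMM factor), the siRNA libraries lay below each NC library, with no overlap, in 6 of 10 members and in 5 of the 8 tested (E2F1, E2F3, E2F4, E2F5 and RBL1, with E2F2 as the sixth), and above in 0. Of all tested genes, 19.0% were lower without overlap and 38.4% did not overlap in either direction. On the deposited FPKM scale 2 of the 10 members, E2F1 and RBL1, were lower without overlap, beside 14.9% of tested genes. The scales differ by the TMM factor, which was 0.892 for NC library 3 and 1.01 to 1.03 for the other 5.

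Without NC library 3, E2F1, E2F3, E2F4 and RBL1 passed the adjusted p as lower, 4 of 8 members, beside 35.2% of all tested genes and 18.3% as lower. E2F1 was still the 1 member past both limits. The median over the members was then -0.37 beside 0.01 over all tested genes, and 7 of 8 were below 0.

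**Figure D3:**
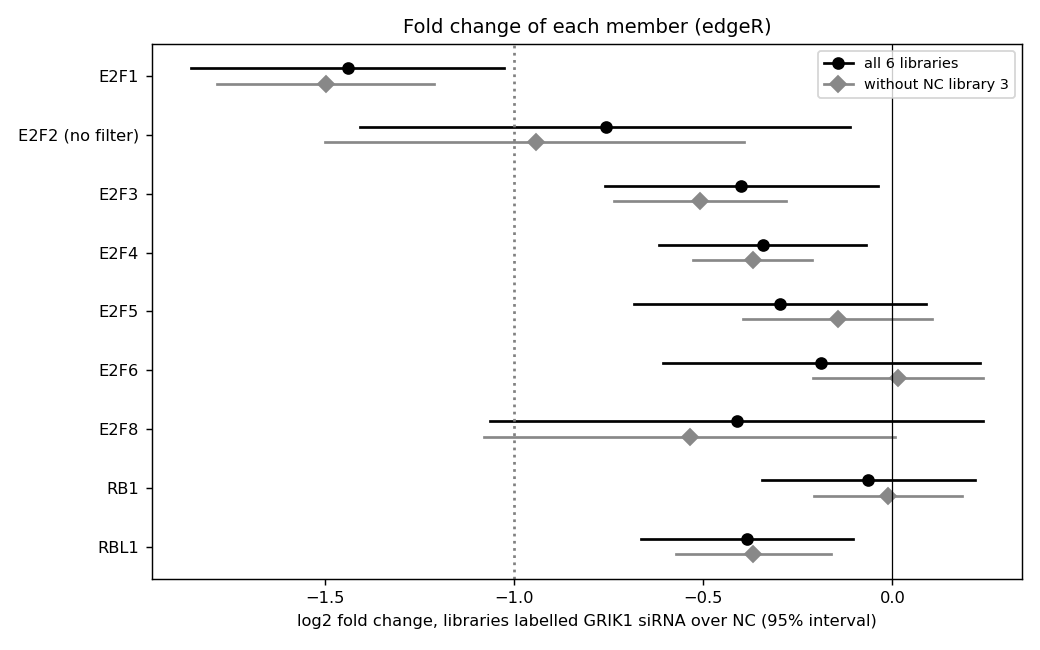
Fitted log2 fold change of the siRNA libraries over NC for 9 members, with the 95% interval as a line, from all 6 libraries (black) and without NC library 3 (grey). E2F2 is taken from the fit without a filter on low values, and E2F7 is left out for its few counts. E2F1 at -1.44 is the one member whose interval lies wholly beyond -1, and the intervals of E2F5, E2F6, E2F8 and RB1 include 0 in both fits.

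E2F1 (ENSG00000101412, chr20:33675477-33686385, minus strand), the activator best known for driving entry into S phase, had 250, 260 and 248 counts in NC and 112, 82 and 122 in the siRNA libraries. This was 22.2, 23.2 and 19.8 CPM against 8.75, 6.30 and 8.99. Each siRNA library was below each NC library, and the lowest NC value was more than double the highest siRNA value. The means were 21.7 ± 1.73 and 8.01 ± 1.49 (SD, n = 3), so the siRNA libraries held 36.9% of the NC level. E2F1 fell by 1.44 on the log2 scale (SE 0.18, 95% interval -1.85 to -1.03), with an adjusted p of 0.0236 in edgeR. By p it ranked at 37 among the 15870 genes tested, and by size of fall at 114.

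NC library 3 was the lowest NC library for E2F1, and without it the log2 fold change was -1.50 (SE 0.14) with an adjusted p of 2.12e-07. When any 1 of the other 5 libraries was left out instead, so that NC library 3 stayed in, the log2 fold change was -1.53 to -1.29 and the adjusted p was 0.0676 to 0.194. In those 5 fits 0 of all tested genes passed in edgeR, with 2241 to 4434 at an unadjusted p under 0.05. The call of E2F1 thus rested on each of these 5 libraries, while its direction and size did not.

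E2F2 (ENSG00000007968, chr1:23506438-23531233, minus strand), the second activator, was expressed near the minimum of 0.5 FPKM used for testing, with 41, 44 and 31 counts in NC and 27, 21 and 31 in the siRNA libraries. In CPM these were 3.63, 3.93 and 2.48 against 2.11, 1.61 and 2.28. The groups did not overlap, but NC library 3 lay close to the siRNA libraries. In the edgeR fit without a filter on low values the log2 fold change was -0.76 (SE 0.31) with an adjusted p of 0.196, and without NC library 3 it was -0.94 (SE 0.28) with an adjusted p of 0.00746.

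E2F3 (ENSG00000112242, chr6:20401879-20493714, plus strand), the third activator, gave 23.7, 22.0 and 17.8 CPM in NC and 16.7, 14.6 and 16.7 in the siRNA libraries, from 190 to 267 counts a library. Here too NC library 3 lay near the siRNA libraries, 17.8 against their highest value of 16.7. The log2 fold change was -0.40 (SE 0.15, 95% interval -0.76 to -0.04), with an adjusted p of 0.168 in edgeR with all libraries. Without NC library 3 it was -0.51 (SE 0.11) and passed, with an adjusted p of 0.00132.

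Among the repressors, E2F4 (ENSG00000205250, chr16:67192155-67198918, plus strand), which enters the nucleus with RBL1 and RBL2, had the largest counts, 680 to 771 in NC and 633 to 683 in the siRNA libraries. In CPM these were 68.3, 60.7 and 60.9 against 53.4, 48.6 and 47.8. The groups did not overlap on this scale, and the gap between them was smaller than the range within NC. The log2 fold change was -0.34 (SE 0.12, 95% interval -0.62 to -0.07), with an adjusted p of 0.134 in edgeR, and without NC library 3 it was -0.37 with an adjusted p of 0.000932.

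E2F5 (ENSG00000133740, chr8:85177154-85217158, plus strand), a repressor that pairs mainly with RBL2, gave 15.77, 14.20 and 19.92 CPM in NC and 14.07, 13.97 and 12.60 in the siRNA libraries. The groups were only just apart, and NC library 3 was the highest. The log2 fold change was -0.30 (SE 0.17), with an adjusted p of 0.297 in edgeR, and -0.15 with an adjusted p of 0.373 without NC library 3. RBIS lies on the opposite strand and shares 969 exonic bases with E2F5 at a mean of 19.7 FPKM, and the strand setting of the counting was not given in the sources used here, so reads of the 2 genes may not have been told apart.

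E2F6 (ENSG00000169016, chr2:11444375-11466177, minus strand), which represses through Polycomb complexes and not through pocket proteins, gave 19.0, 20.3 and 28.3 CPM in NC and 19.1, 18.8 and 21.4 in the siRNA libraries. Apart from NC library 3 the 6 values were close together. The log2 fold change was -0.19 with an adjusted p of 0.529 in edgeR, and without NC library 3 it was 0.014 with a 95% interval of -0.21 to 0.24.

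The atypical members bind DNA without a DP partner and repress E2F1 among other genes. E2F7 (ENSG00000165891, chr12:77021248-77065569, minus strand) had 0, 1 and 5 counts in NC and 2, 6 and 1 in the siRNA libraries, too few for a fold. E2F8 (ENSG00000129173, chr11:19224063-19241620, minus strand) had 55, 47 and 43 counts in NC and 53, 30 and 40 in the siRNA libraries. Its groups overlapped at 3.44 to 4.87 against 2.30 to 4.14 CPM. The log2 fold change was -0.41 (SE 0.28, 95% interval -1.06 to 0.24), with an adjusted p of 0.379 in edgeR. At this depth the interval includes no change, a small rise and falls larger than that of E2F3.

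The pocket proteins differed from each other. RB1 (ENSG00000139687, chr13:48303744-48599436, plus strand), the retinoblastoma tumour suppressor, gave 27.6, 31.5 and 32.7 CPM in NC and 30.2, 28.6 and 29.1 in the siRNA libraries, and the siRNA values lay inside the NC range. Its log2 fold change was -0.06 (SE 0.12, 95% interval -0.35 to 0.22), with an adjusted p of 0.76 in edgeR. Without NC library 3 the interval was -0.21 to 0.18.

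RBL1 (ENSG00000080839, chr20:36996349-37095997, minus strand), the pocket protein p107 whose own promoter E2F factors are known to control, gave 31.3, 30.0 and 31.6 CPM in NC and 23.5, 25.7 and 22.0 in the siRNA libraries. The groups were apart on both scales, and NC library 3 was like the other NC libraries. The log2 fold change was -0.38 (SE 0.12, 95% interval -0.66 to -0.10), with an unadjusted p of 0.0136 and an adjusted p of 0.116 in edgeR. Without NC library 3 it was -0.37 (SE 0.10) and passed, with an adjusted p of 0.00656. RBL1 per RB1 on the FPKM scale was 1.22, 1.03 and 1.04 in NC and 0.843, 0.972 and 0.815 in the siRNA libraries, so the order of the 2 pocket proteins was the reverse in the 2 groups.

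Activators were then set against repressors within each library, as the difference of the mean log2(FPKM + 0.1) of E2F1, E2F2 and E2F3 from that of E2F4, E2F5 and E2F6. The difference was -1.02, -0.93 and -1.59 in NC and -1.67, -1.94 and -1.58 in the siRNA libraries. The repressors were above the activators in each library, and the groups overlapped through NC library 3. The means were -1.18 ± 0.36 and -1.73 ± 0.19 (SD, n = 3), a difference of -0.55, and the NC mean without library 3 was -0.97. The activator mean was 1.48 ± 0.30 in NC and 0.76 ± 0.20 in the siRNA libraries, while the repressor mean was 2.66 ± 0.07 and 2.49 ± 0.03. As these are scores over members, no test was made of them. The fall of the activator mean came largely from E2F1 and from E2F2, which lay under the minimum for testing. E2F3 changed by about as much as the repressor E2F4, with log2 fold changes of -0.40 and -0.34 in edgeR.

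**Figure D4:**
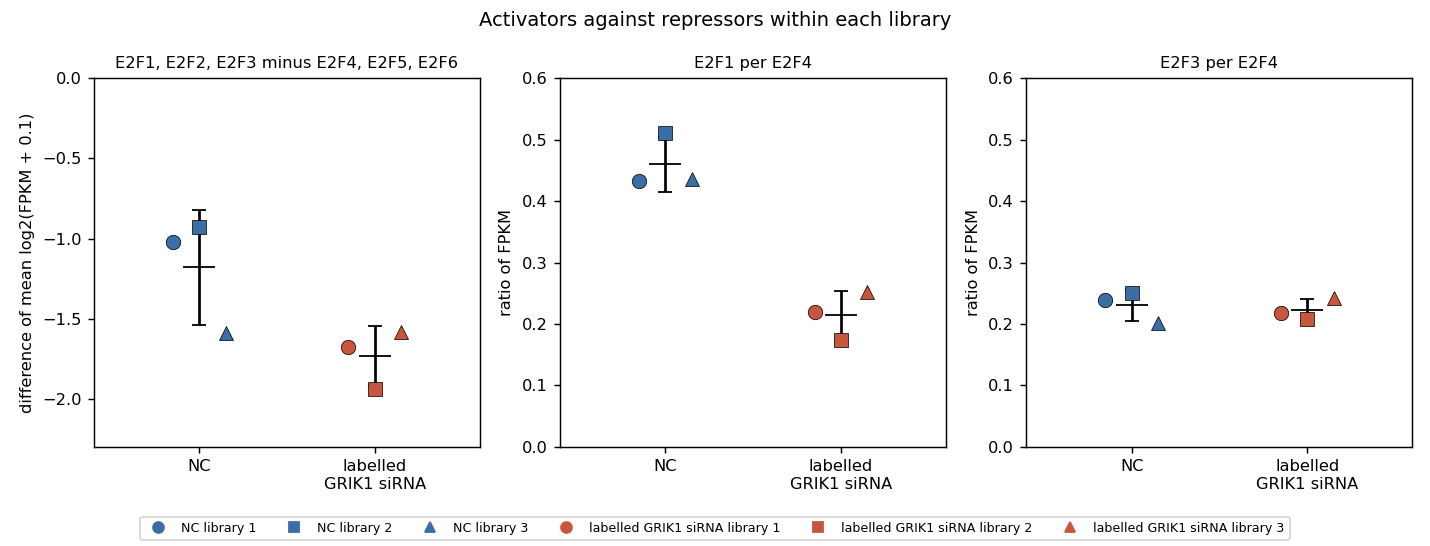
Left, mean log2(FPKM + 0.1) of the 3 activators minus that of the 3 repressors in each library; middle and right, the ratio of FPKM of E2F1 and of E2F3 to E2F4, with symbols as single libraries and crosses as means with SD (n = 3). E2F1 per E2F4 is 0.433 to 0.511 in NC and 0.173 to 0.251 in the siRNA libraries, whereas the values of E2F3 per E2F4 overlap.

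E2F1 differed between the groups in its ratio to each member it was set against. E2F1 per E2F4 on the FPKM scale was 0.433, 0.511 and 0.435 in NC and 0.219, 0.173 and 0.251 in the siRNA libraries. NC library 3 was not set apart in this ratio. E2F3 per E2F4 was 0.240, 0.251 and 0.202 in NC and 0.217, 0.208 and 0.243 in the siRNA libraries, with means of 0.231 and 0.223 and overlapping groups. E2F1 per E2F3 was 1.81, 2.04 and 2.16 in NC and 1.01, 0.834 and 1.04 in the siRNA libraries. In NC E2F1 was thus the leading activator, and in the siRNA libraries E2F1 and E2F3 stood at about the same level. E2F1 per RB1 was 1.92, 1.76 and 1.45 in NC and 0.694, 0.527 and 0.738 in the siRNA libraries.

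The summed FPKM of E2F1 to E2F8 was 41.6, 39.1 and 35.1 in NC and 30.8, 27.4 and 29.1 in the siRNA libraries. E2F1 made up 20.1%, 22.2% and 18.7% of that sum in NC and 10.9%, 8.84% and 11.8% in the siRNA libraries. The share of E2F4 was 46.4%, 43.5% and 43.0% against 49.8%, 50.9% and 46.9%. E2F4 thus held the largest share in both groups, and each siRNA library gave E2F1 a smaller share than any NC library.

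No other member lay close to E2F1 in a measure that counts the size of a change as well as its course over the libraries. The order of the members by it therefore largely repeats the fold changes given above. The likeness was measured as the root mean square difference of log2 CPM, each gene centred on its mean over the 6 libraries, and was 0.538 for E2F3 and 0.539 for E2F8, the nearest members, and 0.713 for RB1, the farthest. The 5 nearest of all tested genes were GPRC5B, RELL2, HS3ST2, GPR137B and HMGA1, at 0.123 to 0.184. Their log2 fold changes in edgeR were -1.80 to -1.30, near that of E2F1. HMGA1, an architectural chromatin protein, was the most abundant of them, with 530 ± 8.82 CPM in NC and 213 ± 6.30 in the siRNA libraries.

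The other genes of the pathway were taken as 8 lists, and as for E2F1 each call among them was lost when 1 of the 5 libraries other than NC library 3 was left out. Among partners of E2F and subunits of the DREAM repressor complex, 9 of 10 genes were tested, with a median log2 fold change of 0.05. Only TFDP1, which encodes the DP1 partner of E2F1 to E2F6, passed the adjusted p, beside 3.08% of all tested genes in either direction. It fell by 0.56 on the log2 scale (SE 0.11, adjusted p 0.0448 in edgeR), from 144 ± 8.67 to 97.9 ± 3.14 CPM, and by 0.51 without NC library 3. TFDP2, the second DP partner, gave -0.37 with an adjusted p of 0.276, and -0.11 with an adjusted p of 0.257 without NC library 3. RBL2, the third pocket protein, is named here after its values were seen. It gave 0.26 with an adjusted p of 0.291 in edgeR, the opposite sign to RBL1, and 0.14 with an adjusted p of 0.0178 without NC library 3. In the fit without NC library 3, 1 gene of the list (TFDP1) passed as lower and 2 as higher, RBL2 among them. Of all tested genes 18.3% were lower in that fit and 35.2% passed in either direction.

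Among 9 tested genes, namely cyclins and kinases that act on pocket proteins and the phosphatase CDC25A, the median was -0.47, and 8 of 9 were below 0. CDC25A, which activates CDK2, fell by 1.04 on the log2 scale (SE 0.20, adjusted p 0.0432 in edgeR), from 6.62 ± 1.04 to 3.23 ± 0.133 CPM, and was the 1 gene of the list past the adjusted p. Of all tested genes 3.08% passed it in either direction and 1.48% as lower. CDK2 itself gave -0.57 with an adjusted p of 0.0509. DESeq2 had 3 genes of the list lower, with an adjusted p of 0.00613 for CDK2, and limma-trend had 0, with an adjusted p of 0.0614 and 0.065 for CDC25A at a pseudocount of 1 and 0.1. DESeq2 called more genes in all, 499 past both limits beside 224 in edgeR. Its share of all genes at an adjusted p alone is not given here, so its list counts have no share beside them. In edgeR without NC library 3, 5 passed as lower and 1 as higher. In that fit 18.3% of all tested genes were lower and 35.2% passed in either direction. Of 7 CDK inhibitors 3 were tested and 0 passed the adjusted p in edgeR. At an unadjusted p under 0.05 there were 1 lower and 1 higher, beside 25.1% of all tested genes. DESeq2 gave 1 lower and 1 higher at an adjusted p and limma-trend 0. CDKN1A, the inhibitor p21, gave 0.40 with an adjusted p of 0.0973 in edgeR, and CDKN2D gave -0.98 with an adjusted p of 0.104. Without NC library 3, 1 inhibitor passed the adjusted p as lower and 1 as higher, beside 35.2% of all tested genes in either direction. In that edgeR fit CDKN1A gave 0.41 with an adjusted p of 1.43e-05, and CDKN2D gave -0.69 with an adjusted p of 0.0209. CDKN2A, a locus deleted in U87-MG cells, had a mean of 0.02 FPKM.

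**Figure D5:**
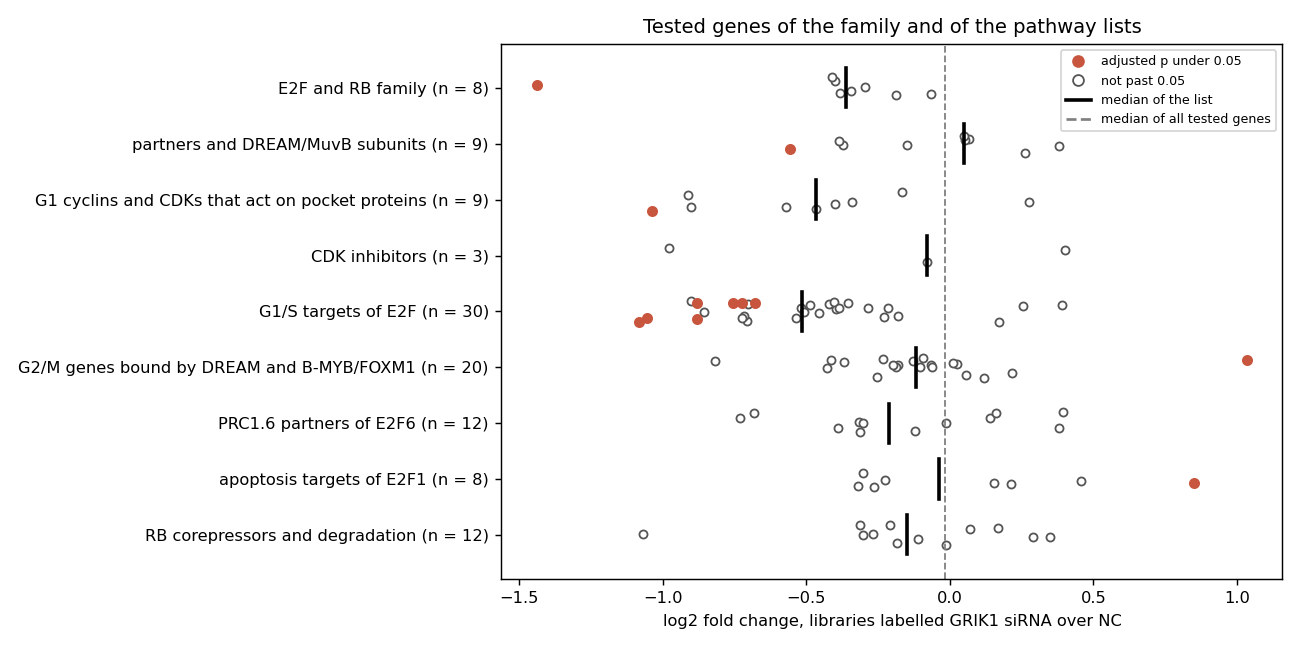
Log2 fold change of the siRNA libraries over NC for each tested gene of the family and of 8 pathway lists, with genes at an adjusted p under 0.05 filled in red, the median of each list as a black bar and the median of all tested genes (-0.02) as a dashed line. The G1/S list has 27 of 30 genes below 0 and a median of -0.51, whereas the G2/M list has a median of -0.12.

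Genes for DNA replication and nucleotide supply at the transition from G1 to S, the classical targets of activator E2Fs, were all tested. Of these 30 genes 7 fell and 0 rose at an adjusted p under 0.05 in edgeR, beside 1.48% of all tested genes as lower, and 2 of the 7 also passed the fold limit. The median log2 fold change was -0.51. CDC6, which loads the replicative helicase, fell by 1.05 on the log2 scale (SE 0.16, adjusted p 0.0306), from 27.9 ± 5.09 to 13.4 ± 0.671 CPM. RRM2, a subunit of ribonucleotide reductase, fell by 0.88 (adjusted p 0.0303), and the helicase subunits MCM5 and MCM3 fell by 0.88 and 0.72 (adjusted p 0.0310 and 0.0366). CDC45 and MCM4 were also among those that fell, and the 3 genes above 0 were TK1 (0.39), POLA1 (0.25) and DNMT1 (0.17), all of which are named after their values were seen. Without NC library 3, 20 fell and 1 rose, with a median of -0.50, in a fit in which 18.3% of all tested genes were lower and 35.2% passed in either direction. When 1 of the other 5 libraries was left out, 0 passed the adjusted p and 12 to 17 were lower at an unadjusted p under 0.05. In those fits 2241 to 4434 of the 15870 tested genes passed that p in either direction, and the share lower is not given here. This list was chosen with earlier results of these libraries known and is not independent evidence of its direction.

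Genes of G2 and mitosis, which the DREAM complex and later B-MYB and FOXM1 bind, were all tested. Of these 20 genes 0 fell and 1 rose at an adjusted p under 0.05 in edgeR, beside 3.08% of all tested genes in either direction. At an unadjusted p under 0.05 there were 2 lower and 1 higher, beside 25.1% of all tested genes. At an adjusted p without NC library 3 there were 3 lower and 1 higher. In that fit 18.3% of all tested genes were lower and 35.2% passed in either direction. The median was -0.12, or 0.01 without NC library 3. KIF20A, a mitotic kinesin, rose by 1.03 on the log2 scale (SE 0.18, adjusted p 0.0378), from 6.24 ± 1.08 to 12.8 ± 1.20 CPM. CDK1 gave -0.82 with an adjusted p of 0.124 with all libraries, and -0.44 with an adjusted p of 0.00255 without NC library 3. Without a filter on low values it gave -0.85 with an adjusted p of 0.0281. DESeq2 and limma-trend also had 0 lower and 1 higher.

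Among apoptosis genes that E2F1 is known to induce, APAF1, the core of the apoptosome, rose by 0.85 on the log2 scale (SE 0.14, adjusted p 0.0325 in edgeR), from 10.9 ± 0.898 to 19.7 ± 1.28 CPM. It was the 1 of 8 tested that passed, beside 3.08% of all tested genes in either direction. The direction of APAF1 was opposite to that of E2F1, and the median of the list was -0.04, with 4 of 8 below 0. The median was 0.15 without NC library 3, with 2 of 8 below 0. APAF1 was again the 1 gene that passed, in a fit in which 35.2% of all tested genes passed. BBC3 gave 0.46 with an adjusted p of 0.204, and 0.28 with an adjusted p of 0.074 without NC library 3. Of the 12 Polycomb partners of E2F6 and the 12 corepressors and degradation factors of RB, 0 passed in each list in edgeR, with medians of -0.21 and -0.15. In the first list 4 were lower and 2 higher at an unadjusted p under 0.05, and in the second 2 and 1. Of all tested genes 25.1% passed that p. At an adjusted p without NC library 3 there were 4 lower and 3 higher, and 3 lower and 2 higher. In that fit 18.3% of all tested genes were lower and 35.2% passed in either direction. DESeq2, which called more genes in all than edgeR, gave 1 lower and 1 higher in the first and 0 in the second. In limma-trend 0 passed in both. RNF2 (-0.73, adjusted p 0.0952, and -0.46 without NC library 3) and MGA (0.38, adjusted p 0.105) had the smallest p of the first list, and HDAC1 (-0.30, adjusted p 0.133) and ARID4A (0.35, adjusted p 0.148) of the second. In edgeR without NC library 3 these 4 genes passed. The adjusted p was 0.00134 for RNF2, 0.000967 for MGA (0.33), 0.000389 for HDAC1 (-0.28) and 0.0178 for ARID4A (0.29).

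The promoter letters shown above were set beside the fold changes. Of the tested members with a usable window, E2F1, E2F3 and RBL1 held matches and had log2 fold changes of -1.44, -0.40 and -0.38, and E2F4 and E2F6 held none and had -0.34 and -0.19. Of those not tested, E2F2 held a match and had -0.76 in the fit without a filter, and E2F7 held none and had too few counts. Among G1/S genes with a window, 14 of 25 (56.0%) held a match, beside 3.99% of all genes with a window, and 1 of 15 G2/M genes did. Within the G1/S list the median log2 fold change was -0.41 in the 14 genes with a match and -0.51 in the 11 without, and without NC library 3 the order was the reverse, at -0.53 and -0.37. Of all tested genes with a window, 663 held a match and 9284 did not, with medians of -0.09 and -0.06. In the first group 3.47% were lower and 1.51% higher at an adjusted p under 0.05 in edgeR, and in the second 1.64% and 1.77%, and leaving out NC library 3 these shares were 26.1% and 16.9%, and 22.0% and 19.8%. A match describes the letters of the window and not binding of a factor.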

How the data were processed

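RNA was sequenced from U87-MG cells in 3 NC libraries and 3 libraries labelled as GRIK1 siRNA, and the label alone gave the group. The members and the lists were chosen with earlier results of these data known. The authors deposited raw counts of reads per gene, without normalization, together with FPKM values of their own. The formula of counts over exonic length and total count gave 100% of the FPKM values within 0.0051. The submitters' processing notes name cutadapt 1.9.1, HISAT2, HTSeq and GRCh38. Start and end were the same in GENCODE 29 for 41597 of 58254 shared genes. No value column (0) was left unassigned. Total counts of 11099909 to 14006968 set the precision, and a gene with 0 counts could have up to 3.

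Genes with a mean FPKM of at least 0.5 over the 6 libraries (15870) were tested in R 4.3.3 with edgeR 4.0.16 (quasi-likelihood test after TMM scaling), and p-values were adjusted over all of them by Benjamini-Hochberg. Calls used an adjusted p under 0.05 and a log2 fold change over 1 in size. The test was tried on simulated counts. CPM values were computed with TMM scaling. Likeness to E2F1 used log2 CPM with a prior count of 2, and ratios used FPKM as deposited, with a pseudocount of 0.1 where logged. Motifs were searched in RefSeq promoter windows of GRCh38.p14.

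The genes named were all members, GRIK1, genes overlapping a member with shared exons and the 5 genes nearest to E2F1. Besides RBIS, the overlapping genes were ENSG00000254208 (133 exonic bases shared with E2F5, mean 0.0817 FPKM), CSRP3-AS1 (7 with E2F8, 0.135 FPKM) and ENSG00000269846 (211 with RBL1, 0 FPKM). All lie on the opposite strand. From each list the 4 genes of smallest p among those with an adjusted p under 0.05 were named, or the 2 of smallest p where fewer than 2 passed. Alternatives were DESeq2 1.42.0, limma-trend (limma 3.58.1) on log2(FPKM + 1) and log2(FPKM + 0.1), other scalings and filters, the replicate number as a block, and leaving out each library. Python 3.11.15, numpy 2.4.6, pandas 2.3.3, scipy 1.17.1 and matplotlib 3.10.9 were used for the remaining steps. The values of 1 gene of a list are not reported here.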

Additional observations from a re-analysis of the deposited data

How the results depend on the processing

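The number of genes past both limits, 224 with edgeR, was 499 with DESeq2, 113 and 125 with limma-trend at a pseudocount of 1 and 0.1, 664 without a filter, 472 at a log2 fold change over 0.58 and 0 with the replicate block, and leaving out 1 library gave 0 to 491. Members past both limits went from 1 to 0 with the replicate block, with a range of 0 to 1 when 1 library was left out, and members at an adjusted p under 0.05 went from 1 to 0 and had a range of 0 to 4. The 7 G1/S genes that fell were 12 with DESeq2, 2 and 2 with limma-trend at both pseudocounts, 11 without a filter and 0 with the replicate block, and leaving out 1 library gave 0 to 20, while the median of the list stayed between -0.59 and -0.29. For DESeq2, limma-trend and the fit without a filter the share of all genes lower at an adjusted p alone is not given here. The block fit still had 3323 genes, 3 members and 13 lower G1/S genes at an unadjusted p under 0.05, and its log2 fold change of E2F1 was -1.45, with an adjusted p of 0.0923. Libraries of the same number did not deviate together (correlations of -0.07, 0.04 and -0.04). As the deviations were taken within groups of 3 and NC library 3 stood apart, this cannot show whether the numbers pair the libraries. Over the alternatives the log2 fold change of E2F1 was -1.53 to -1.13 and its adjusted p 8.42e-09 to 0.194.

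The sign turned for E2F6 without NC library 3 (log2 fold change 0.014, with a range of -0.30 to 0.014 when 1 library was left out) and for RB1 in limma-trend at a pseudocount of 1 (0.021) and 0.1 (0.026). FPKM is scaled to the total count, and there the median of all genes was 0.06 and 0.09 in place of -0.02, so relative to the median RB1 was at -0.04 and -0.06, beside -0.05 in edgeR. Of the genes past both limits 38.4% were lower in edgeR, and 14.2% and 26.4% in limma-trend. NC library 3 set the spread, with a common dispersion of 0.0391 with it and 0.00298 without it. Activators minus repressors moved by less than 1 SD in each alternative run. At this depth E2F2, E2F7 and E2F8 allow no firm statement.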
